A study of Homo sapiens with 9 samples.

Results

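The comparison of ETV1 sgRNA with Luciferase sgRNA covers 6 of the 9 RNA-seq libraries of this series, 3 with an sgRNA (the guide RNA of a CRISPR system) against ETV1 and 3 with a control sgRNA against Luciferase, an insect enzyme without a human counterpart. The 6 libraries were taken by their labels, and all genes of the deposited table were considered for them. All 9 libraries came from polyA RNA of GIST-T1, an established human line of gastrointestinal stromal tumour (GIST), and the other 3 carried an sgRNA against HAND1 and entered the estimate of the spread and the filter on low values, not the comparison. The line is 1 tumour's line, so nothing here extends beyond it. The sequence of the sgRNA, the number of sgRNAs per gene, the effector protein and the time after delivery were not stated in the labels. Nothing in the labels tells whether libraries of 1 group are independent cultures. The p-values therefore reflect library-to-library spread, and that spread may be technical.

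ETV1 is a transcription factor of the ETS family, which binds DNA at a short core motif, and it belongs with ETV4 and ETV5 to the PEA3 subgroup. Interstitial cells of Cajal, which pace gut contractions and are the presumed origin of GIST, express it. In GIST the receptor tyrosine kinase KIT is usually active through mutation, and ERK signalling downstream of KIT stabilises the ETV1 protein. ERK also induces immediate early genes such as FOS and EGR1 and a set of its own inhibitors, the dual-specificity phosphatases (DUSP) and Sprouty proteins (SPRY).

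Values were deposited as FPKM, fragments normalised to transcript length and to library size. Of 23610 genes, 11348 had a mean of at least 1 FPKM over the 9 libraries and were tested. Differences are given on the scale log2(FPKM + 1), as ETV1 sgRNA minus Luciferase sgRNA, a scale that compresses differences at low FPKM, and ratios of mean FPKM are given beside them for the main genes. A gene was called changed at an adjusted p under 0.05 in limma (Benjamini-Hochberg over all genes tested, two-sided). Depth is unknown in absolute terms, but the spacing of low values put the 6 libraries at 0.637 to 1 of the depth of Luciferase sgRNA replicate 1. Luciferase sgRNA replicate 3 stood apart: 82 ribosomal protein genes took 12.2% of its summed FPKM, against 8.73% to 9.51% in the other 5 libraries. For lists whose calls or median moved without that library, both values are given, except where both medians were under 0.02 in size or the move was within 1.5 times.

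The labelled cell type was checked against its markers. KIT, ANO1 (the chloride channel known as DOG1), GPR20, FOXF1, BARX1, HAND1 and PRKCQ were all present in both groups, between 6.84 FPKM (PRKCQ) and 304 FPKM (FOXF1) with Luciferase sgRNA. Of 24 neuronal and glial markers 20 had a mean under 1 FPKM, and so had 16 of 20 epithelial and 20 of 21 blood and endothelial markers. Their summed level was 64.1 to 71.9 FPKM with Luciferase sgRNA and 68.4 to 75.0 with ETV1 sgRNA for the neuronal and glial list, which was mostly TUBB3, a tubulin. For the epithelial list it was 230 to 269 and 227 to 251 FPKM, mostly KRT18, a keratin. For the blood and endothelial list it was 5.21 to 6.07 and 7.87 to 11.7 FPKM, with CD68, a macrophage protein, as its one tested member (4.06 ± 0.629 and 4.96 ± 0.790 FPKM, SD, n = 3). The last list's groups did not overlap, 4 of its members were at 0 in the 6 libraries, and its part in any result below was not tested.

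ETV1 itself was at 42.2, 39.4 and 37.4 FPKM in the 3 Luciferase sgRNA libraries and at 10.9, 12.03 and 11.2 FPKM in the 3 ETV1 sgRNA libraries. The groups were far apart, and the ETV1 sgRNA libraries lay close to each other. The mean was 3.48 times lower with ETV1 sgRNA (log2 −1.71, SE 0.061, 95% interval −1.85 to −1.58, adjusted p = 6.22e-07 in limma). A transcript at 11.4 ± 0.571 FPKM (SD, n = 3) remained, and whether it encodes a full protein was not measured. In bulk RNA, fewer cells with a transcript and less of it per cell cannot be told apart, here and in all results below.

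Few other genes moved. Limma called 23 of 11348 genes (0.203%), 16 higher (0.141%) and 7 lower (0.0617%), ETV1 included. In 88.3% of the tested genes the difference was at most 0.2 in either direction (log2), and the median over all of them was −0.01. The called genes had means over both groups from 2.89 FPKM (IGFBP3) to 171 FPKM (RASL11A), and 21 of the 23 reached 10 FPKM in at least 1 group. Precision depended on level: the median SE was 0.073 among the 6698 genes that reached 10 FPKM and 0.119 among the rest. The smallest difference called was 0.38 (TP53I11). At an unadjusted p under 0.05 there were 521 genes higher (4.59%) and 409 lower (3.6%). Without Luciferase sgRNA replicate 3 the count was 28 of 11340 (0.247%), 19 of them among the 23.

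**Figure D1:**
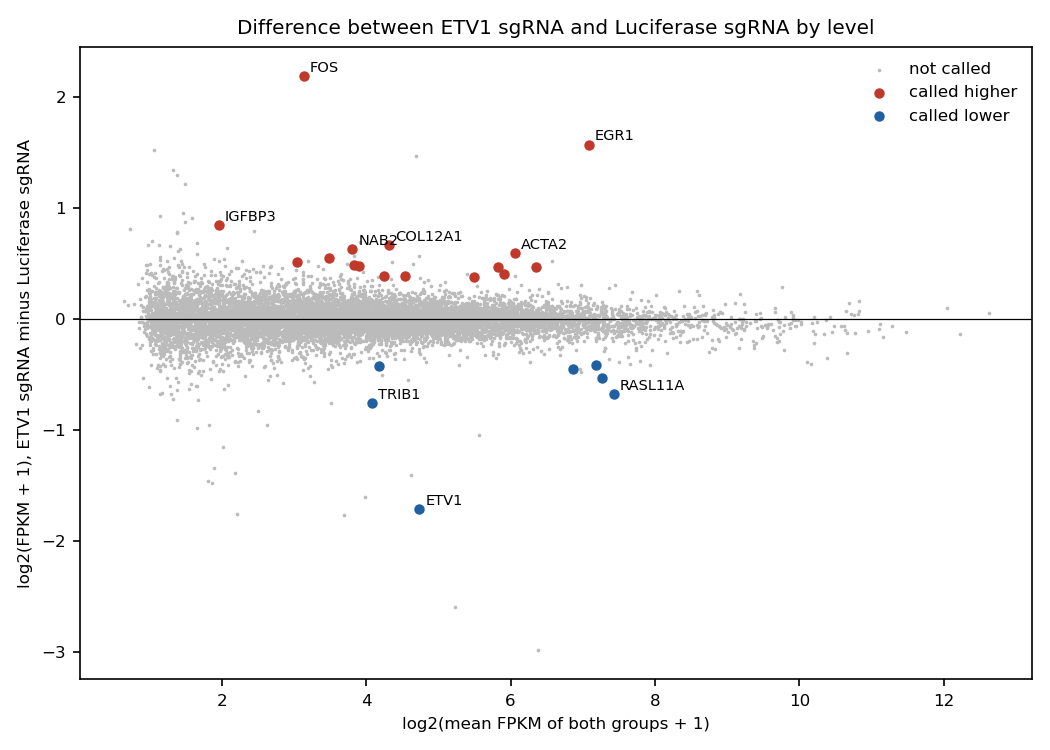
Difference between ETV1 sgRNA and Luciferase sgRNA (y axis, log2(FPKM + 1)) against the level of each of the 11348 tested genes (x axis, log2 of the mean FPKM of both groups + 1). Red points are the 16 genes called higher and blue points the 7 called lower; FOS, EGR1 and ETV1 lie far from the cloud, while most other distant points are grey, not called, and at low levels.

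Immediate early genes, which cells transcribe within minutes of a stimulus, held the largest rises. FOS, a subunit of the AP-1 transcription factor, was at 1.65, 2.38 and 2.50 FPKM with Luciferase sgRNA and at 12.7, 12.6 and 14.8 FPKM with ETV1 sgRNA. Its mean was 6.15 times higher (log2 2.19, SE 0.118, adjusted p = 2.07e-05 in limma). EGR1, a zinc finger transcription factor induced through ERK and SRF, was at 65.1, 68.7 and 68.1 FPKM and at 193, 191 and 221 FPKM, 3.00 times higher (log2 1.57, SE 0.099, adjusted p = 6.56e-05 in limma). For both genes every ETV1 sgRNA library lay far above every control library. JUN, the partner of FOS in AP-1, was at 11.3, 10.04 and 11.5 FPKM and at 15.9, 14.7 and 16.4 FPKM, a smaller separation (log2 0.48, adjusted p = 0.0209). ZFP36L2, which binds AU-rich elements and promotes decay of mRNAs, was at 46.9, 47.9 and 45.2 FPKM and at 66.9, 62.2 and 65.1 FPKM (log2 0.46, adjusted p = 0.00606).

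NAB2 encodes a co-repressor that EGR1 induces and that in turn restrains EGR1. It was at 9.23, 9.69 and 11.0 FPKM with Luciferase sgRNA and at 16.6, 15.4 and 15.8 FPKM with ETV1 sgRNA, 1.60 times higher (log2 0.63, SE 0.079, adjusted p = 0.00961 in limma). In the list of EGR1 partners and reported EGR1 targets, EGR1 and NAB2 rose and the other 10 of 12 tested members were not called (17 listed; median 0.03, and 0.01 without Luciferase sgRNA replicate 3). PDGFA, a growth factor reported as an EGR1 target, was at 2.40 ± 0.361 against 1.42 ± 0.144 FPKM (SD, n = 3; log2 −0.49, adjusted p = 0.408).

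The rise did not extend to every immediate early gene. Of 37 listed genes 27 were tested, 4 rose, 0 fell and 23 were not called; EGR2, EGR3, EGR4, FOSB, FOSL1, NR4A2, NR4A3, KLF4, IER3 and ARC were under the filter over 9 libraries. In 12 of the 27 all 3 ETV1 sgRNA values lay above all 3 control values and in 2 below, where 6.88% and 6% of all genes tested did so. The list's median was 0.12, beside −0.01 over all genes tested. When Luciferase sgRNA replicate 3 was left out, limma called 5 higher, the median was 0.15, and 14 lay above and 3 below, against 14.2% and 12.5% of all genes. The added gene was IER2, named after its values were seen, which was at 0.52 with all libraries (adjusted p = 0.180) and at 0.65 without that library (adjusted p = 0.00877); with quantile normalization its adjusted p was 0.0363. Among genes named after their values were seen, JUNB, an AP-1 subunit, was at 19.7 against 28.2 FPKM (log2 0.49, adjusted p = 0.0825) and was called without ETV1 sgRNA replicate 2 (0.59, adjusted p = 0.0366). NR4A1, an orphan nuclear receptor of the same class, stood on the other side at 13.1 against 10.1 FPKM (log2 −0.35, adjusted p = 0.194). MYC was at 1.80 ± 0.275 against 1.503 ± 0.232 FPKM (SD, n = 3; log2 −0.16, 95% interval −0.52 to 0.20).

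**Figure D2:**
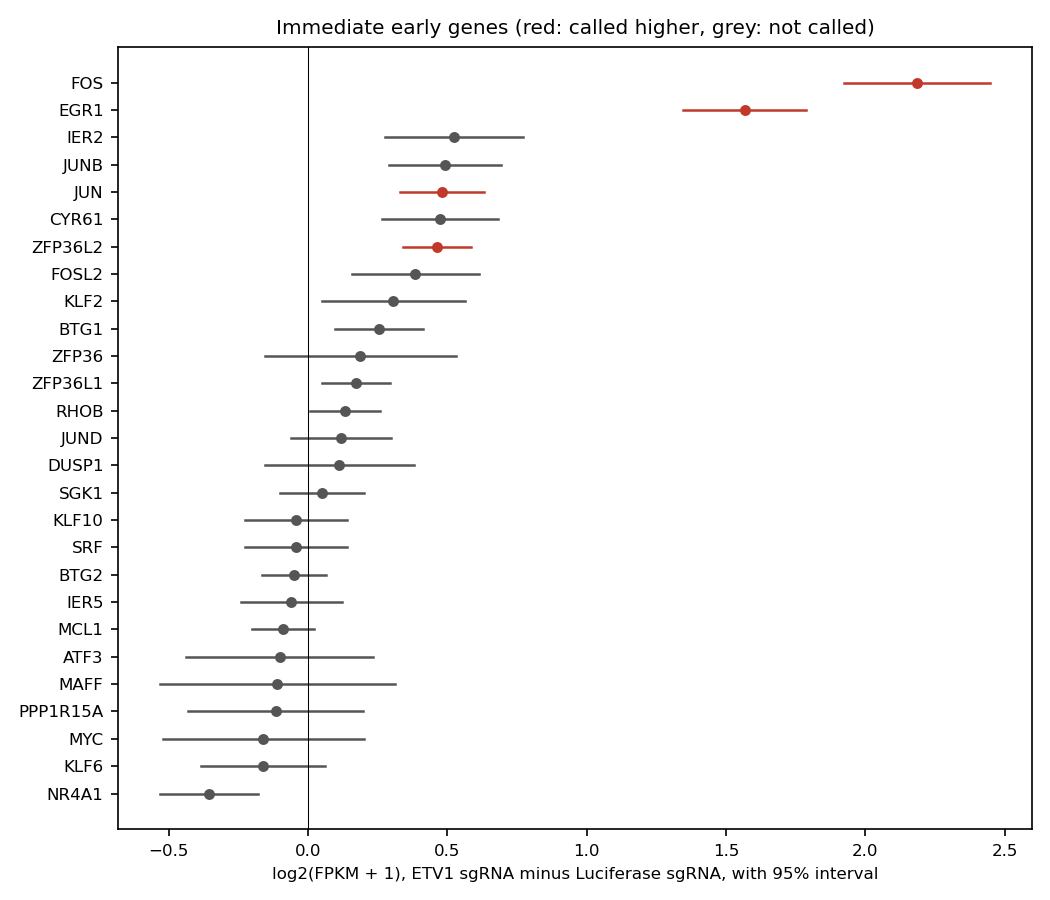
Difference between ETV1 sgRNA and Luciferase sgRNA (x axis, log2(FPKM + 1)) for the 27 tested immediate early genes, with the 95% interval of limma as a line. FOS and EGR1 lie far to the right of the others, JUN and ZFP36L2 are the other called genes, and 11 genes have a difference below 0.

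The feedback inhibitors of ERK that were called moved in opposite directions. DUSP6, a cytoplasmic phosphatase that removes phosphate from ERK, was at 181, 185 and 177 FPKM with Luciferase sgRNA and at 122, 122 and 130 FPKM with ETV1 sgRNA. It was 1.45 times lower (log2 −0.53, SE 0.050, adjusted p = 0.00136 in limma). SPRY4 was at 166, 170 and 160 FPKM and at 124, 127 and 120 FPKM, 1.34 times lower (log2 −0.41, SE 0.047, adjusted p = 0.00489 in limma). Its relative SPRY1 was at 50.8, 53.6 and 47.7 FPKM and at 67.7, 64.4 and 70.0 FPKM, which is 1.33 times higher (log2 0.40, SE 0.058, adjusted p = 0.0257 in limma). SPRY2, another Sprouty protein, was the most abundant tested feedback inhibitor, at 277 against 283 FPKM (log2 0.03, adjusted p = 0.928; named after its value was seen). The 2 Sprouty genes that were called thus changed in opposite directions, and neither group of libraries overlapped the other for them. SPRY1 kept its call in only 2 of the 9 fits with 1 library left out. SPRY4 kept its call in all 9, though not under every other setting.

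Among 21 tested feedback inhibitors of 25 listed, 1 rose, 2 fell and 18 were not called, with a median of 0.02. When Luciferase sgRNA replicate 3 was left out the counts of calls were the same and the median was 0.01. DUSP10, a phosphatase of JNK and p38, was at 1.59 ± 0.386 against 0.961 ± 0.374 FPKM (SD, n = 3; log2 −0.41, adjusted p = 0.563). In a shorter list of 10 transcripts used as a readout of ERK activity, 9 were tested: DUSP6 and SPRY4 fell, 0 rose and the median was −0.05. The uncalled members PHLDA1, CCND1 (cyclin D1), ETV4 and ETV5 had differences of 0.22, −0.05, −0.05 and −0.04. Their 95% intervals ran from 0.10 to 0.33, −0.18 to 0.07, −0.16 to 0.05 and −0.16 to 0.07. Each of the last 3 intervals excluded a change as large as that of DUSP6.

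RASL11A, a small RAS-like GTPase found in the nucleolus, was the most abundant called gene. It was at 201, 213 and 218 FPKM with Luciferase sgRNA and at 135, 125 and 135 FPKM with ETV1 sgRNA, 1.60 times lower (log2 −0.68, SE 0.062, adjusted p = 0.00120 in limma). The paralog RASL11B was at 13.9 ± 2.05 against 17.9 ± 1.21 FPKM (SD, n = 3; log2 0.35, adjusted p = 0.369). Of the 22 tested genes of RAS and the ERK cascade of 23 listed, RASL11A alone was called, with a list median of 0.01.

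TRIB1, a pseudokinase that brings substrates to the ubiquitin ligase COP1, was at 20.7, 21.4 and 18.6 FPKM with Luciferase sgRNA and at 11.4, 11.6 and 11.6 FPKM with ETV1 sgRNA. It was 1.75 times lower (log2 −0.76, SE 0.064, adjusted p = 8.53e-04 in limma), the largest fall after ETV1 among called genes. COP1 is known to mark ETV1 protein for degradation. The other 8 tested genes of Tribbles and the ligase (9 listed) were not called, with a list median of −0.01; TRIB3 was at −0.09 (adjusted p = 0.796). MYCN, a MYC family transcription factor, was at 132, 132 and 136 FPKM and at 94.2, 96.9 and 101 FPKM, 1.37 times lower (log2 −0.46, SE 0.055, adjusted p = 0.00693 in limma). It was the only called gene of 11 tested members of the MYC network (12 listed; median −0.06). Without ETV1 sgRNA replicate 1 its adjusted p was 0.0639, and that of ZFP36L2 was 0.0591.

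PTGS2 makes prostaglandins and is also known as COX-2. It was at 19.7, 20.5 and 19.1 FPKM with Luciferase sgRNA and at 14.7, 14.6 and 14.0 FPKM with ETV1 sgRNA (log2 −0.43, adjusted p = 0.0200 in limma). Its list of prostaglandin, cytokine and NF-kB genes had 19 tested of 36 listed, with 0 others called and a median of −0.04 (−0.01 without Luciferase sgRNA replicate 3). TNFAIP3, an inhibitor of NF-kB signalling, was on the other side at 6.44 ± 0.255 against 8.94 ± 0.293 FPKM (SD, n = 3; log2 0.42, adjusted p = 0.0725).

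**Figure D3:**
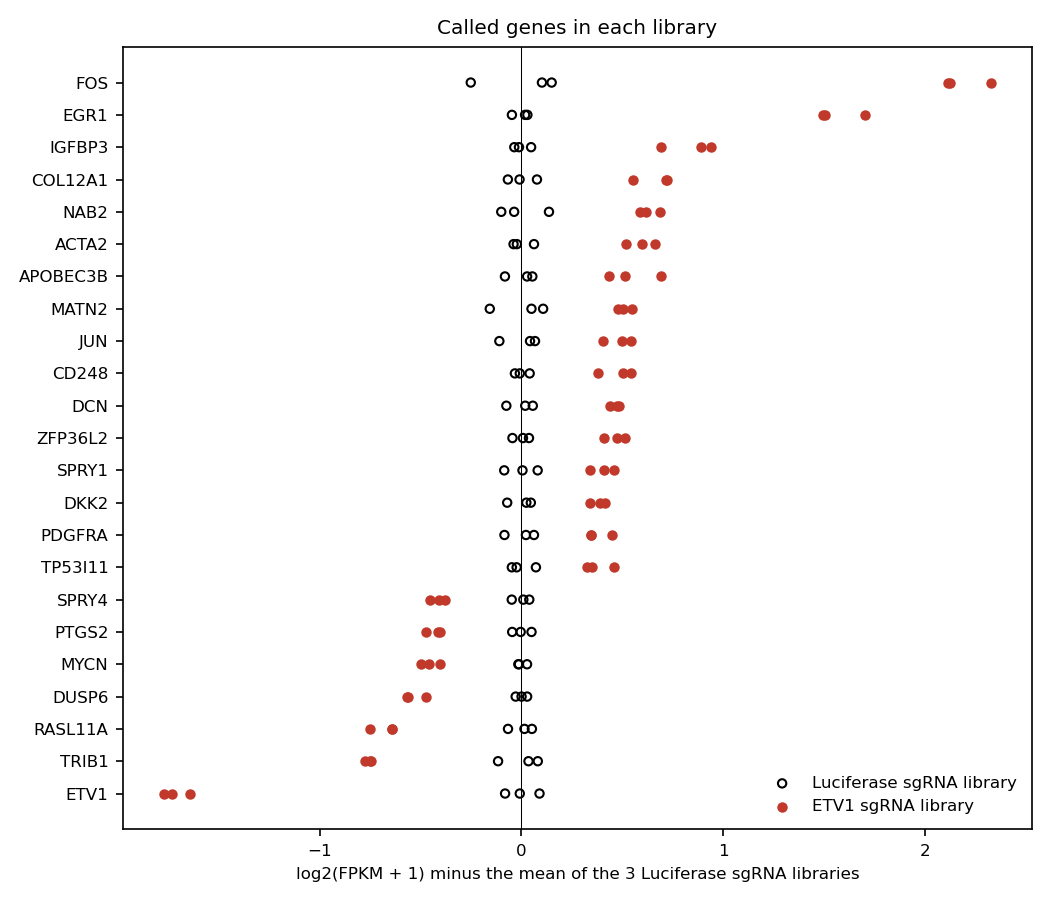
The 23 called genes in each library, as log2(FPKM + 1) minus the mean of the 3 Luciferase sgRNA libraries (x axis). Open circles are the Luciferase sgRNA libraries and red circles the ETV1 sgRNA libraries; for every called gene the groups do not overlap, and ETV1, FOS and EGR1 are the most distant.

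The receptors that drive GIST did not move together. PDGFRA, the receptor mutated in a part of GIST without KIT mutation, was at 16.3, 15.8 and 14.6 FPKM with Luciferase sgRNA and at 19.99, 21.6 and 20.002 FPKM with ETV1 sgRNA. It was 1.32 times higher (log2 0.38, SE 0.061, adjusted p = 0.0436 in limma). KIT was at 209 ± 11.3 against 207 ± 9.22 FPKM (SD, n = 3), a difference of −0.01 with a 95% interval of −0.14 to 0.12 (log2). That interval excludes a fall of the size seen for SPRY4 or DUSP6. KITLG, the ligand of KIT, was at 5.07 ± 0.238 against 4.20 ± 0.254 FPKM (log2 −0.22, adjusted p = 0.482). The list of receptor tyrosine kinases with their ligands had 19 tested of 36; PDGFRA rose, 0 fell, and the median was 0.01. With Luciferase sgRNA replicate 3 left out, limma called 0 of them, and the median was −0.06.

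Markers of GIST and of interstitial cells had 18 tested members of 21, with PDGFRA higher, ETV1 lower and 16 not called (median 0.00). With Luciferase sgRNA replicate 3 left out, ETV1 was the only call and the median was −0.02. ANO1 was at 165 ± 5.69 against 172 ± 1.54 FPKM (SD, n = 3; log2 0.06, 95% interval −0.04 to 0.17). GPR20, an orphan receptor of GIST, was at 81.6 ± 7.04 against 77.8 ± 6.25 FPKM. CD34, a surface sialomucin common in GIST, was at 1680 ± 30.5 against 1534 ± 33.8 FPKM, and PLAT, tissue plasminogen activator, at 2256 ± 86.0 against 2181 ± 53.4 FPKM. The difference was −0.13 for CD34 (log2, 95% interval −0.29 to 0.03) and −0.05 for PLAT (−0.23 to 0.13); GPR20, CD34 and PLAT were named after their values were seen. Summed over all 21 markers the level was 5208 to 5258 FPKM with Luciferase sgRNA and 4979 to 5147 FPKM with ETV1 sgRNA, so the sums did not overlap although 16 markers were not called. Both sums were mostly PLAT and CD34, neither of them called, and ETV1 itself was among the markers summed.

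In the ETS family 17 of 22 genes were tested, and ETV1 was the only one called (median −0.03). ETV4 and ETV5, the closest relatives of ETV1, were at 33.5 ± 0.470 against 32.2 ± 0.540 FPKM and at 113 ± 4.25 against 109 ± 0.373 FPKM (SD, n = 3). No rise of either relative was called beside the lower ETV1. Of the uncalled members ELF1 had a difference of 0.28 (log2, adjusted p = 0.408) and GABPA one of 0.19 (adjusted p = 0.425).

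Transcription factors of gut mesenchyme had 0 of 20 tested members called (24 listed). In 8 of the 20 the ETV1 sgRNA values all lay above the control values and in 2 below, against 6.88% and 6% of all genes, and the median was 0.10. HAND1, a basic helix-loop-helix factor, was at 114 ± 1.12 against 132 ± 2.26 FPKM (SD, n = 3; log2 0.21, adjusted p = 0.244). PITX1, a homeobox factor of the hindlimb and hindgut, was at 349 ± 18.4 against 416 ± 13.0 FPKM (0.25, adjusted p = 0.270). OSR1, an odd-skipped zinc finger factor, was at 238 ± 2.21 against 277 ± 8.12 FPKM (0.21, adjusted p = 0.233). On the other side were HAND2 (−0.23, adjusted p = 0.409) and TBX2 (−0.27, adjusted p = 0.467; named after its value was seen). Leaving out Luciferase sgRNA replicate 3, limma again called 0, 9 lay above and 2 below, against 14.2% and 12.5% of all genes, and the median was 0.11.

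Among smooth muscle contractile and SRF target genes, ACTA2, smooth muscle actin, was the called one. It was at 54.4, 51.3 and 50.7 FPKM with Luciferase sgRNA and at 75.1, 82.9 and 79.4 FPKM with ETV1 sgRNA, 1.52 times higher (log2 0.59, SE 0.054, adjusted p = 0.00120 in limma). Of 21 tested members (28 listed) 1 rose, 0 fell and 20 were not called. In 8 of them the ETV1 sgRNA values all lay above the control values and in 0 below, against 6.88% and 6% of all genes, and the median was 0.13. CAV1, the coat protein of caveolae, was at 3.97 ± 0.436 against 5.94 ± 0.897 FPKM (SD, n = 3; log2 0.48, adjusted p = 0.232), and CNN2, a calponin, at 120 ± 2.32 against 138 ± 4.16 FPKM (0.20, adjusted p = 0.248). In the fit that left out Luciferase sgRNA replicate 3, 1 rose, 11 lay above and 1 below, against 14.2% and 12.5% of all genes, and the median was 0.11. ACTA2 kept its call in every fit with 1 library left out, with differences from 0.56 to 0.63.

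Matrix genes held 4 called members in all, each of them higher. COL12A1, a collagen that associates with collagen fibrils, was at 15.2, 14.2 and 13.6 FPKM with Luciferase sgRNA and at 24.3, 24.2 and 21.5 FPKM with ETV1 sgRNA, 1.62 times higher (log2 0.66, SE 0.070, adjusted p = 0.00306 in limma). DCN, the proteoglycan decorin, was at 70.4, 64.2 and 68.6 FPKM and at 94.5, 92.1 and 94.9 FPKM, 1.39 times higher (log2 0.47, SE 0.050, adjusted p = 0.00306 in limma). Both kept their call whichever library was left out. CD248, a surface protein of pericytes and fibroblasts also called endosialin, was at 11.4, 11.2 and 11.8 FPKM and at 17.1, 16.6 and 15.2 FPKM (log2 0.47, adjusted p = 0.0324). MATN2, the filament-forming matrix protein matrilin-2, was at 6.33, 5.11 and 6.05 FPKM and at 8.64, 8.95 and 8.49 FPKM (log2 0.51, adjusted p = 0.0389).

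As a list, matrix glycoproteins and proteoglycans had 27 tested of 39, with 3 higher, 0 lower and 24 not called (median 0.13). In 11 of the 27 the ETV1 sgRNA values all lay above the control values and in 0 below, against 6.88% and 6% of all genes. SPARC, a collagen-binding protein, was at 36.0 ± 1.36 against 41.5 ± 0.491 FPKM (SD, n = 3; log2 0.20, adjusted p = 0.225), and LUM, lumican, at 293 against 348 FPKM (0.25, adjusted p = 0.370; named after its value was seen). Without Luciferase sgRNA replicate 3, 2 were called higher, 12 lay above and 5 below, against 14.2% and 12.5% of all genes, and the median was 0.12.

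Collagens held 1 call. Of 14 tested collagens (23 listed) COL12A1 rose, 0 fell and the median was 0.05. COL3A1, a fibrillar collagen and the most abundant of those named here, was at 779 ± 4.68 against 948 ± 3.02 FPKM (SD, n = 3; log2 0.28, adjusted p = 0.180), and COL6A2 at 35.0 ± 1.73 against 41.5 ± 1.70 FPKM (0.24, adjusted p = 0.311). COL15A1, a basement membrane collagen, was at 9.51 ± 0.839 against 6.73 ± 0.524 FPKM (−0.44, adjusted p = 0.0819). Of 20 tested matrix crosslinking and remodelling enzymes (27 listed) 0 were called. In 7 of these the ETV1 sgRNA values lay above and in 1 below, against 6.88% and 6% of all genes (median 0.08). LOXL1, a lysyl oxidase, was at 15.97 ± 1.35 against 21.0 ± 2.48 FPKM (0.37, adjusted p = 0.225). Without Luciferase sgRNA replicate 3, 0 of the enzymes were called, and 9 lay above and 2 below, against 14.2% and 12.5% of all genes.

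Secreted regulators gave single calls. IGFBP3, which binds insulin-like growth factors, was at 1.76, 1.88 and 1.71 FPKM with Luciferase sgRNA and at 4.15, 3.50 and 4.33 FPKM with ETV1 sgRNA. It was 2.24 times higher (log2 0.84, SE 0.090, adjusted p = 0.00306 in limma), and it was the called gene with the lowest level. Of the 7 tested genes of IGF binding proteins and their regulators (11 listed) it alone was called (median 0.03, and 0.07 without Luciferase sgRNA replicate 3), while IGFBP5 was at −0.15 (adjusted p = 0.576) and STC2, an inhibitor of the protease PAPPA, at −0.36 (adjusted p = 0.220). DKK2, an antagonist of WNT signalling, was at 18.2, 19.8 and 19.5 FPKM and at 24.5, 25.8 and 25.4 FPKM (log2 0.38, adjusted p = 0.0324). It was the only call of 23 tested WNT genes (35 listed; median 0.07), where LEF1, a transcription factor of the pathway, was at 0.34 (adjusted p = 0.271) and SFRP1, a secreted antagonist, at −0.18 (adjusted p = 0.453).

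The BMP and Hedgehog list had 0 of 22 tested genes called (31 listed; median 0.02). BMP4, a ligand, was at 112 ± 3.48 against 138 ± 9.13 FPKM (SD, n = 3; log2 0.30, adjusted p = 0.101). Of 15 tested TGF-beta genes (20 listed; median −0.01) 0 were called, with LTBP1, which stores latent TGF-beta, at 0.34 (adjusted p = 0.425) and TGFBI at −0.40 (adjusted p = 0.495). The YAP response list had IGFBP3 as its only call among 16 tested genes (23 listed; median 0.02, and −0.01 without Luciferase sgRNA replicate 3). In that list CYR61 and CTGF, matricellular proteins, were at 7.44 ± 0.331 against 10.8 ± 1.62 FPKM and at 6.57 ± 1.21 against 9.81 ± 1.05 FPKM (log2 0.47 and 0.52, adjusted p = 0.124 and 0.209).

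APOBEC3B, a cytidine deaminase of the innate antiviral response, was at 8.25, 8.42 and 7.57 FPKM with Luciferase sgRNA and at 11.3, 11.9 and 13.7 FPKM with ETV1 sgRNA (log2 0.55, adjusted p = 0.0324 in limma). The other 3 of 4 tested APOBEC3 genes (7 listed; median 0.04) were not called. Leaving out Luciferase sgRNA replicate 3, 0 of the 4 were called and the median was 0.07. TP53I11 was at 36.7, 39.96 and 37.3 FPKM and at 47.9, 48.7 and 52.5 FPKM (log2 0.38, adjusted p = 0.0324), the only call among 24 tested p53 targets (26 listed; median 0.02). Leaving out the same library, 0 p53 targets were called and their median was 0.04. TNFRSF10B, a death receptor of that list, was at −0.16 (adjusted p = 0.595). Interferon response genes had 0 of 20 tested members called (33 listed; median 0.09). In 5 of them the ETV1 sgRNA values lay above the control values and in 0 below, against 6.88% and 6% of all genes. Leaving out the same library, 7 lay above and 0 below, against 14.2% and 12.5%, and the median was 0.16. IRF7, an interferon regulatory factor, was at 2.34 ± 0.418 against 3.87 ± 0.796 FPKM (SD, n = 3; log2 0.54, adjusted p = 0.364).

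Cell cycle genes gave no call. Limma called 0 of 30 S phase genes (median −0.04, and −0.02 without Luciferase sgRNA replicate 3), 0 of 30 G2 and mitosis genes (median −0.01) and 0 of 18 tested D-type cyclins, CDKs and CDK inhibitors (21 listed; median 0.02). At an unadjusted p under 0.05 in limma, S phase genes had 2 higher and 2 lower, and G2 and mitosis genes 0 and 1. The list of cyclins and CDKs had 0 and 0, against 4.59% higher and 3.6% lower among all genes tested. MKI67, the proliferation antigen Ki-67, was at 64.4 ± 9.68 against 55.2 ± 6.77 FPKM (SD, n = 3; log2 −0.22, 95% interval −0.47 to 0.04). CCND2, cyclin D2, was at 0.16 (adjusted p = 0.671). In the BCL2 family 0 of 12 tested genes were called (16 listed; median −0.04, and 0.09 without Luciferase sgRNA replicate 3), with PMAIP1, the pro-apoptotic NOXA, at −0.19 (adjusted p = 0.608).

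Metabolic lists held no call. Of 30 tested ATF4 amino acid and stress genes (32 listed) 0 were called. In 6 the ETV1 sgRNA values all lay below the control values and in 0 above, against 6% and 6.88% of all genes, and the median was −0.10. ASNS, asparagine synthetase, was at 68.5 ± 2.23 against 60.7 ± 3.06 FPKM (SD, n = 3; log2 −0.17, adjusted p = 0.381), and ALDH1L2, a mitochondrial folate enzyme, at 2.63 ± 0.198 against 1.80 ± 0.187 FPKM (−0.38, adjusted p = 0.362). Cholesterol biosynthesis had 0 of 24 tested genes called (25 listed; median −0.09), with 8 below and 0 above. HMGCS1, which makes the precursor of mevalonate, was at 32.8 ± 1.70 against 28.9 ± 0.307 FPKM (−0.18, adjusted p = 0.482). Of 27 tested hypoxia and glycolysis genes (32 listed; median −0.07) 0 were called, 6 lay below and 1 above. NDRG1, the one above, was at 4.39 ± 0.768 against 6.41 ± 0.152 FPKM (0.47, adjusted p = 0.190).

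These medians moved with Luciferase sgRNA replicate 3. Leaving it out, they were −0.07 (ATF4), −0.07 (cholesterol) and −0.02 (hypoxia). In that comparison 8, 10 and 6 members lay below and 1 each above, against 12.5% and 14.2% of all genes, and limma called 0 in each. In the plot of lists by library, ribosomal protein genes differed more between control libraries than between groups: their median over 75 tested genes was −0.23, −0.09 and 0.32 in Luciferase sgRNA replicates 1, 2 and 3 and −0.05, −0.13 and −0.05 in ETV1 sgRNA replicates 1, 2 and 3.

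**Figure D4:**
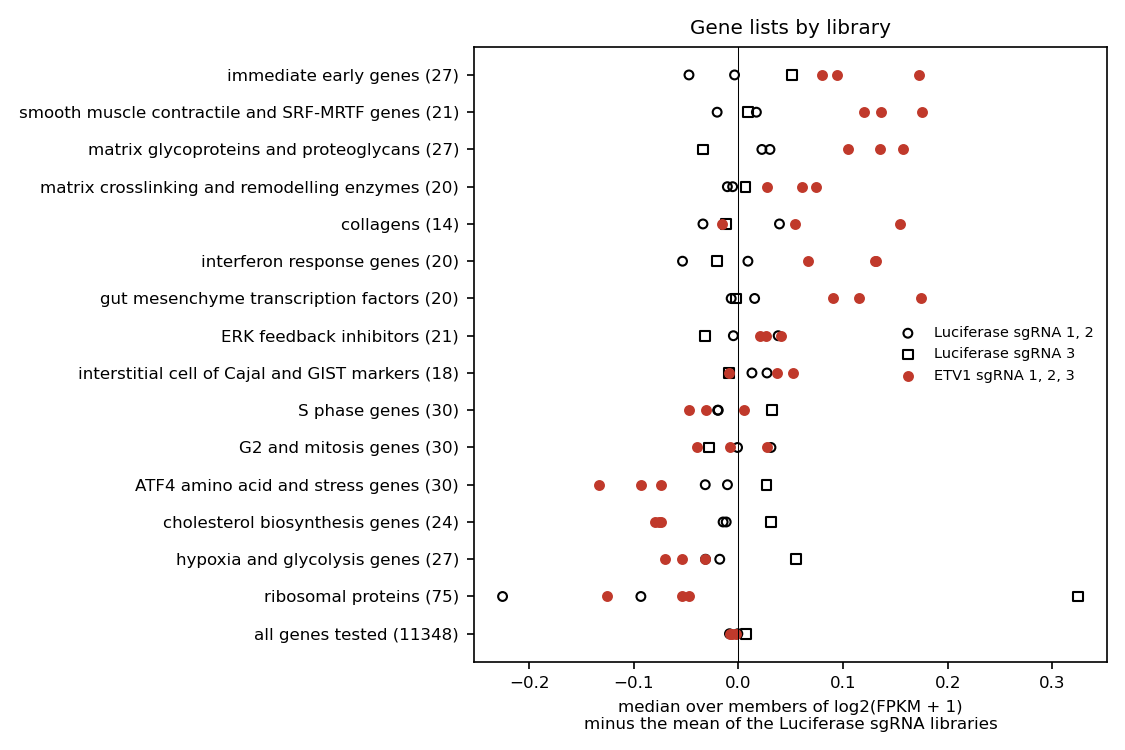
Median over the tested members of each list (number in brackets) of log2(FPKM + 1) minus the mean of the 3 Luciferase sgRNA libraries (x axis), for each library. Red circles are ETV1 sgRNA libraries, open circles Luciferase sgRNA replicates 1 and 2, and open squares replicate 3. The 3 ETV1 sgRNA libraries lie to the right of all controls for immediate early, muscle, matrix glycoprotein, matrix enzyme, gut mesenchyme and interferon lists. They lie to the left of all controls for ATF4, cholesterol and hypoxia lists, barely so for hypoxia. The square lies farthest right for ribosomal proteins.

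The calls differed in how far they depended on single libraries. Of the 23 genes, 11 kept their call in all 9 fits with 1 library left out: ETV1, FOS, EGR1, TRIB1, ACTA2, RASL11A, DUSP6, COL12A1, DCN, IGFBP3 and SPRY4. NAB2 lost it without ETV1 sgRNA replicates 1 or 3 (adjusted p = 0.0723 and 0.0568) and without Luciferase sgRNA replicates 1 or 2 (0.0529 and 0.0648). PTGS2 lost it without any of the ETV1 sgRNA libraries (0.0800, 0.0847 and 0.125) and without Luciferase sgRNA replicates 1 or 2 (0.0929 and 0.122). JUN kept it in 2 of the 9 fits, those that left out ETV1 sgRNA replicate 2 (0.0405) or Luciferase sgRNA replicate 3 (0.0246). SPRY1 kept it in 2, without Luciferase sgRNA replicates 2 (0.0453) or 3 (0.0376), and CD248 in 2, without Luciferase sgRNA replicate 3 (0.0467) and HAND1 sgRNA replicate 3 (0.0330). DKK2 kept it in 1, without Luciferase sgRNA replicate 3 (0.0490). APOBEC3B, MATN2, TP53I11 and PDGFRA lost it in all 9, with adjusted p between 0.0564 (MATN2) and 0.228 (PDGFRA), while their differences stayed between 0.34 and 0.60 (log2). These 4 calls rest on the full set of libraries.

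Most large differences were not called. Of 20 tested genes with a difference of at least 1 in either direction (log2), 3 were called (FOS, EGR1 and ETV1) and 17 were not, and 12 of the 17 were listed at 0 in at least 1 of the 6 libraries. Only 6 of the 17 had groups that did not overlap. Among them was HIST2H2AC, a replication-dependent histone whose mRNA normally lacks a polyA tail, at 4.52, 3.74 and 5.42 FPKM with Luciferase sgRNA and at 2.19, 1.75 and 0.734 FPKM with ETV1 sgRNA (log2 −1.16, adjusted p = 0.232). SRGN, the proteoglycan serglycin of blood cells, was at 0, 0.213 and 0 FPKM and at 2.98, 1.76 and 1.58 FPKM (log2 1.51, adjusted p = 0.343). With HAND1 sgRNA it was at 0, 0.232 and 3.05 FPKM, the last of them above the ETV1 sgRNA values. It moved beside the blood and endothelial markers given above, and their part in it was not tested. IPO11-LRRC70, another of the 6, was at 8.82e-05, 3.31e-04 and 1.56 FPKM and at 2.39, 2.51 and 2.51 FPKM. Its difference was 1.34 (log2, adjusted p = 0.225 in limma). Without Luciferase sgRNA replicate 3 it was called (1.79, adjusted p = 0.00144 in limma).

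Smaller uncalled differences with separate groups included signalling genes. NPPC, a natriuretic peptide, was at 4.94, 7.76 and 8.60 FPKM with Luciferase sgRNA and at 2.41, 4.70 and 2.52 FPKM with ETV1 sgRNA (log2 −0.96, adjusted p = 0.345). ULBP3 and RAET1G, both stress ligands of the NKG2D receptor of lymphocytes, lay on opposite sides: ULBP3 was at 6.26 ± 0.263 against 3.10 ± 0.610 FPKM and RAET1G at 0.939 ± 0.426 against 2.28 ± 0.139 FPKM (SD, n = 3; log2 −0.83 and 0.78, adjusted p = 0.225 and 0.271). CITED4, a co-activator of CBP and p300, was at 10.6 ± 1.68 against 17.6 ± 1.03 FPKM (0.69, adjusted p = 0.0825), and leaving out Luciferase sgRNA replicate 3 made it a called gene (0.79, adjusted p = 0.0376).

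Some called genes overlap another gene, and the library kit does not keep the strand. In the GENCODE 29 annotation, which is on a later build than the deposited values, 17.3% of the exon bases of ACTA2 lie under an antisense RNA and 12.8% under exons of FAS on the opposite strand. FAS was at 33.1 against 36.9 FPKM (log2 0.15, adjusted p = 0.755). Of DUSP6, 40.5% lie under an antisense RNA, of MYCN 3.77% under MYCNOS, and of NAB2 2.29% under STAT6. MYCNOS was at 1.16 against 2.08 FPKM (log2 0.49, adjusted p = 0.688). PDGFRA shares 15.8% of its exon bases with another gene model on the same strand. APOBEC3B shares 18.4% of its exon bases with transcripts of APOBEC3A on the same strand, and 12.9% lie under an antisense RNA. It is near identical to its neighbour in places, so its value is uncertain. APOBEC3A was listed at 0 FPKM in both groups.

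The HAND1 sgRNA libraries, compared with the same control libraries, are given as levels only. EGR1 was at 21.6, 21.1 and 27.9 FPKM there, below the controls, while it was above them with ETV1 sgRNA. NAB2 was at 17.2, 15.0 and 15.3 FPKM there, above the controls. TRIB1 was at 11.2, 11.6 and 11.6 FPKM, next to the 11.4 to 11.6 FPKM of the ETV1 sgRNA libraries. Most other called genes also differed from the controls there, on the same side as with ETV1 sgRNA. DUSP6 was at 77.4 ± 2.66, SPRY4 at 97.9 ± 1.02 and RASL11A at 105 ± 6.69 FPKM, below the controls (SD, n = 3). MYCN at 77.5 ± 4.56 and PTGS2 at 11.4 ± 0.544 FPKM were also below them. DCN at 129 ± 2.58 and IGFBP3 at 7.28 ± 0.253 FPKM were above them. So were ZFP36L2 (mean 66.1), JUN (14.3), SPRY1 (58.4), DKK2 (24.5), CD248 (18.02) and MATN2 (13.6 FPKM). COL12A1 was at 15.9, 17.02 and 15.2 FPKM, its lowest value barely above the highest control value. For others the HAND1 sgRNA values overlapped those of the controls. Their means there were 1.73 (FOS), 7.66 (APOBEC3B), 38.7 (TP53I11) and 16.2 FPKM (PDGFRA). ACTA2 had a mean of 47.1 FPKM there, below the controls, while it was above them with ETV1 sgRNA. ETV1 itself had a mean of 40.8 FPKM there, and its values overlapped those of the controls.

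Promoter sequences are shown for FOS and EGR1, the most increased genes, and for NAB2, ACTA2 and SPRY4. EGR1, NAB2, ACTA2 and SPRY4 were the matched called genes with the EGR motif given below. Called genes without any motif match, such as RASL11A, DUSP6 and COL12A1, are not shown, apart from FOS. The sequences come from RefSeq on GRCh38.p14, matched by symbol for 16 of the 23 called genes (not APOBEC3B, CD248, DCN, DKK2, MATN2, TRIB1 and ZFP36L2). Each is the 250 bases before the first start listed for its symbol, 5′ to 3′ on the gene's strand. Capitals mark matches on either strand to 5 motifs: an ETS motif (CCGGAAG), an AP-1 motif (TGANTCA), a cyclic AMP response element (TGACGTCA), an EGR motif (GCGNGGGCG) and the CArG box of SRF. The positions are chr14:75278578-75278827 (plus strand) for FOS, chr5:138465229-138465478 (plus) for EGR1, chr12:57088864-57089113 (plus) for NAB2, chr10:88991338-88991587 (minus) for ACTA2 and chr5:142324248-142324497 (minus) for SPRY4.
FOS: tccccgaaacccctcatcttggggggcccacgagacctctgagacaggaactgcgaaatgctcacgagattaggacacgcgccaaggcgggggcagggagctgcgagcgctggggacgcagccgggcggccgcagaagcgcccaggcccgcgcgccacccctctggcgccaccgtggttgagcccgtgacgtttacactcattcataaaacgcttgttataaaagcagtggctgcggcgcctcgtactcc
EGR1: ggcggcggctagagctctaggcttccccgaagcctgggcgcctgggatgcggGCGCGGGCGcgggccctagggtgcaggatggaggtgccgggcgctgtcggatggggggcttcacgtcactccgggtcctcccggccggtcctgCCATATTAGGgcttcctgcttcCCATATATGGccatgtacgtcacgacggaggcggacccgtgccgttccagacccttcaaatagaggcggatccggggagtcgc
NAB2: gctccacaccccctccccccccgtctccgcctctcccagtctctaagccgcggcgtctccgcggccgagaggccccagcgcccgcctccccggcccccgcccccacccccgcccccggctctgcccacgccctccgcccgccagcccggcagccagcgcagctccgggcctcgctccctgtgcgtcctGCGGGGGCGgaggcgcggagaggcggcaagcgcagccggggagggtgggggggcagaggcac
ACTA2: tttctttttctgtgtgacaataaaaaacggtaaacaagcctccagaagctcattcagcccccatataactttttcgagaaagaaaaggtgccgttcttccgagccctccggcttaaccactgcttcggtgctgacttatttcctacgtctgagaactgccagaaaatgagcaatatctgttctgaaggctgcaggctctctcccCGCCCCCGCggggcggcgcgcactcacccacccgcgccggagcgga
SPRY4: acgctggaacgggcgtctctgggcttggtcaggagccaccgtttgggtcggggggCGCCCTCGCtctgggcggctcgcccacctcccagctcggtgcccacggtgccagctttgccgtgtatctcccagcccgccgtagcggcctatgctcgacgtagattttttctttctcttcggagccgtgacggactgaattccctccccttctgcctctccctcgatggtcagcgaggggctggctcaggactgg

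In these windows EGR1 held 2 CArG boxes, which start 105 and 83 bases before the start site, and 1 EGR motif 198 bases before it. NAB2, ACTA2 and SPRY4 held 1 EGR motif each, 62, 46 and 195 bases before the start, so the motif stood in genes that rose and in one that fell. FOS held no match, and among the other matched genes only PDGFRA did, an AP-1 motif 32 bases before its start. The EGR motif was present in 3 of 10 matched genes that rose and 1 of 6 that fell. It was in 8.41% of the 35116 promoters of the table and in 14.5% of the 8429 that belong to tested genes. The CArG box was in 1 of 10 and 0 of 6 (1.16% of all promoters and 1.04% of those of tested genes), and the AP-1 motif in 1 of 10 and 0 of 6 (6.57% and 3.52%). The ETS motif (8.52% and 16.8%) and the cyclic AMP response element (1.65% and 3.11%) were in 0 of 16. A match is a description of letters in this window and not a measured binding site. For each called gene, ACTA2 included, only the first listed start was searched, and it need not be the start used in these cells.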

How the data were processed

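RNA from GIST-T1 (RNeasy Plus, polyA selection) was sequenced on a NovaSeq6000 after a non-stranded NEBNext Ultra II library preparation, per the labels' protocols. Per the submitters' processing notes, STAR and Cufflinks were used and the build was hg19; annotation, filters and between-library scaling were not stated there. The authors deposited FPKM for each symbol in each library. As these hold no counts, no count model was run. Values below 1e-06 were read as 0.

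Genes averaging 1 FPKM or more across the 9 libraries were fitted on log2(FPKM + 1) with limma 3.58.1 in R 4.3.3, with group as the only term, an intensity trend, and the HAND1 sgRNA libraries in the estimate of the spread (6 residual and 4.15 prior degrees of freedom). The fit was tested on simulated data. Date-like symbols (28, of which 17 entered the fit) gave no call. Relative depth is the most frequent ratio of values between 0.001 and 0.1 FPKM.

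The comparison, the gene lists (34 in all) and the rule for named genes were chosen with earlier results of these data known. The rule took ETV1, every called gene, the 10 largest uncalled rises and falls without overlap between the groups, the called members and up to 4 members with the smallest p of each list, and KIT, PDGFRA, HAND1, ANO1, DUSP6, MYC, CCND1, ETV4 and ETV5; not all are named. Lists are described by counts and medians without a set test. Alternatives were other pseudocounts (0.1, 5), filters (none, 5 FPKM), centrings, weights and trend settings, a fit to the 2 groups only, a replicate block, and each library left out.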

Additional observations from a re-analysis of the deposited data

How the results depend on the processing

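ETV1 was called lower under all 19 alternative settings (9 of them with 1 library left out), and so were TRIB1, RASL11A and DUSP6; FOS, EGR1, ACTA2, COL12A1 and DCN were called higher in all of them and IGFBP3 in the 18 that tested it. The count of called genes was 23 in the reported fit, 45 with library weights (33 higher, 12 lower, including the 23) and 14 with only the 2 groups (9 higher, 13 of them among the 23). With 1 library left out it ranged from 11 (without ETV1 sgRNA replicate 1) to 28, with 6 to 20 higher and 5 to 8 lower. Other left-out libraries that moved it by over 1.5 times were ETV1 sgRNA replicate 3 (14), replicates 1 and 2 of Luciferase sgRNA (13 and 14) and replicates 1 and 2 of HAND1 sgRNA (15 each). SPRY4 was not called with quantile normalization (adjusted p = 0.166) or with only the 2 groups (adjusted p = 0.0544). With the replicate number as a block 16 genes were called, 10 of them higher, and 15 were among the 23. Same-numbered libraries of the 2 groups had deviations that correlated at −0.03, 0.05 and 0.14, and ETV1 sgRNA replicates 1 and 2 each correlated best with another number, so the numbers were not treated as pairs. Among the genes listed individually, the sign changed only for 5 uncalled ones near 0. With quantile normalization KIT was at 0.043, KRT18 at 0.032 and PLAT at 0.099; with library weights KRT18 was at 0.029 and FOXF1 at −0.012. With 1 library left out KIT ranged from −0.057 to 0.014, KRT18 from −0.056 to 0.056, FOXF1 from −0.018 to 0.028 and SPRY2 from −0.00047 to 0.058. A fit to the 2 groups without Luciferase sgRNA replicate 3, added after the data were seen, called 20 genes, 13 among the 23, with KRT18 at 0.056 and FOXF1 at −0.018. The cause of these changes was not tested. Depth is unknown, so no limit of detection can be given for genes listed at 0.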
